A study of Mus musculus with 4 samples.

Results

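The Cfap (cilia and flagella associated protein) genes examined here are those whose symbol is Cfap followed only by digits, other than Cfap221, Cfap46, Cfap54, Cfap74, Cfap69, Cfap47, Cfap65, Cfap70, Cfap298, Cfap300, Cfap52 and Cfap53. By that rule 20 of the 22583 features of the matrix were members, and each of them had UMIs in these cells. They were Cfap20, Cfap36, Cfap43, Cfap44, Cfap45, Cfap57, Cfap58, Cfap61, Cfap73, Cfap77, Cfap91, Cfap97, Cfap99, Cfap100, Cfap126, Cfap157, Cfap161, Cfap206, Cfap299 and Cfap410. The rule uses symbols alone and no measured value, but it was set with earlier results of these data known.

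Tracheal cells of mice on the 129S6/SvEvTac background were profiled by droplet single-cell RNA sequencing with a 3' kit, which tags each captured transcript with a unique molecular identifier (UMI). The 4 samples were wild-type mice, nm1054 mice (no Cfap221), Cfap54gt/gt mice, whose Cfap54 carries a gene trap, and bgh mice, in which Spef2 is mutated. Animals were 5 to 8 months old, and each library pooled the cells of 6 tracheas, or of 5 for bgh, so there was 1 library per genotype. Cells had been plated to separate off fibroblasts and cleared of dead cells, which can set the cell types that reach a library. In the deposited matrix the libraries were numbered 1 to 4, and the sources used here do not say which genotype a number stands for. Values are therefore given by library number, no mutant was set against wild type, and no test across samples was possible.

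Libraries 1 to 4 held 4269, 4202, 7360 and 5836 barcodes with 39658153 to 53491773 UMIs each. After filters and removal of likely doublets 19471 cells were left, and 52 barcode sequences were shared between libraries and kept as separate cells. Clusters were made without any Cfap-named gene and were named from marker lists, so every class is called X-like. There were 4692 ciliated-like, 3403 basal-like, 6378 secretory-like, 415 hillock-like, 154 tuft-like, 123 proliferating and 44 ionocyte-like cells, while 2370 cells lay in mixed clusters, most with ciliated and secretory markers together, and 1892 in clusters left unnamed. Mixed and unnamed clusters enter no class. The ciliated-like cells numbered 1177, 990, 1254 and 1271 in libraries 1 to 4. Their summed secretory markers, which include very abundant transcripts, reached 6677 to 13654 CPM, and their part in the values below was not tested. CPM is a gene's UMIs per 1000000 UMIs summed over the cells of a class. A 3' kit counts each transcript at its end, so CPM was not divided by gene length, and the order of levels between genes also depends on how well each 3' end was captured.

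Motile cilia of the airway beat by means of an axoneme, in which doublet microtubules surround a central pair of single microtubules. Dynein arms on the doublets make the doublets slide, and radial spokes and their docking complexes pass signals from the central pair to the arms. Proteins inside the doublets brace their walls. The Cfap name collects proteins from all of these places, and also some that sit at the basal body or the ciliary base. The genes mutated in the study's mice, Spef2, Cfap54 and Cfap221, encode central pair proteins, and none of them is among the 20 members.

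Promoters of ciliary genes are known for sites of RFX factors (X-boxes) and for forkhead sites such as that of Foxj1, and RefSeq promoters (GRCm38.p6, 250 bases before to 50 after the start) were available for 15 of the 20 members. The windows around the X-box matches are shown because these 4 members span the range of levels described below, and Cfap20 is shown because it was also found outside ciliated-like cells. Each is given 5' to 3' on the gene's strand with the match in capitals.
Cfap44, chr16:44394752-44394805, plus strand: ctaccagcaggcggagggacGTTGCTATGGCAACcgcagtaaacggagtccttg
Cfap45, chr1:172521091-172521144, plus strand: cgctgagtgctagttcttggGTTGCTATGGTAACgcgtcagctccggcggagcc
Cfap58, chr19:47937633-47937685, plus strand: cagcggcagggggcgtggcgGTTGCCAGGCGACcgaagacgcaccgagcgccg
Cfap99, chr5:34288610-34288662, plus strand: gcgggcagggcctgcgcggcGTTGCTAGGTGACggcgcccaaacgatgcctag
Cfap20, chr8:95434938-95434984, minus strand: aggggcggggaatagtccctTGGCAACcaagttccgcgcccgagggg

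The capitals are the X-box in the first 4 sequences and the shorter RFX motif GTTGCCA in Cfap20. Each of them matches its motif when read on the strand opposite to the one shown. The centre of the match lay 20 bases upstream of the start in Cfap44, 12 in Cfap45, 53 in Cfap58, 29 in Cfap99 and 92 in Cfap20. Both strands were searched. An X-box was found in 4 of 15 members (26.7%), in 7 of 42 other axonemal genes (16.7%), in 1 of 9 excepted Cfap genes (11.1%) and in 474 of 27025 genes with a promoter (1.75%). The motif GTTGCCA was found in Cfap20, Cfap44, Cfap58 and Cfap161 (26.7%), in 11 of 42 other axonemal genes (26.2%), in 3 of 9 excepted Cfap genes (33.3%) and in 5.02% of all genes, and in Cfap44 and Cfap58 a GTTGCCA match overlaps the X-box. The forkhead core TGTTTAC was found in Cfap20 and Cfap43 (13.3%), in 1 of 42 other axonemal genes (2.38%), in 0 of 9 excepted Cfap genes and in 4.05% of all genes. A gene counted where any of its promoter windows held the motif. These are matches of letters and were not tested for binding.

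In ciliated-like cells the members covered a wide range of levels, and 8 of the 20 held the same place in the order in every library. Over the 4 libraries together, 11 members reached 100 CPM or more, 7 lay between 10 and 100 CPM, and 2 were under 10 CPM. Cfap126 (Flattop), a protein inside the doublets, was the most abundant, at 588, 755.5, 806 and 708 CPM in libraries 1 to 4, and ranked 195th among all features in these cells. Cfap45, another doublet inner protein, followed at 421, 445, 375 and 501 CPM. The libraries did not overlap between these 2 genes, since the lowest Cfap126 value exceeded the highest Cfap45 value.

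Cfap299 came next at 241, 291, 252 and 301 CPM. Cfap206, a protein of the radial spoke base, followed at 209, 221, 248 and 257 CPM, and its range overlapped that of Cfap299. Cfap20, which closes the inner junction of the doublet, was at 182, 208, 221 and 250.4 CPM and Cfap36, a partner of the small GTPase Arl3, at 168, 202, 212.5 and 229 CPM. Those 2 neighbours in the order overlapped across libraries. In every library the first 4 places went to Cfap126, Cfap45, Cfap299 and Cfap206 in that order, and places 17 to 20 to Cfap61, Cfap97, Cfap73 and Cfap99.

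**Figure D1:**
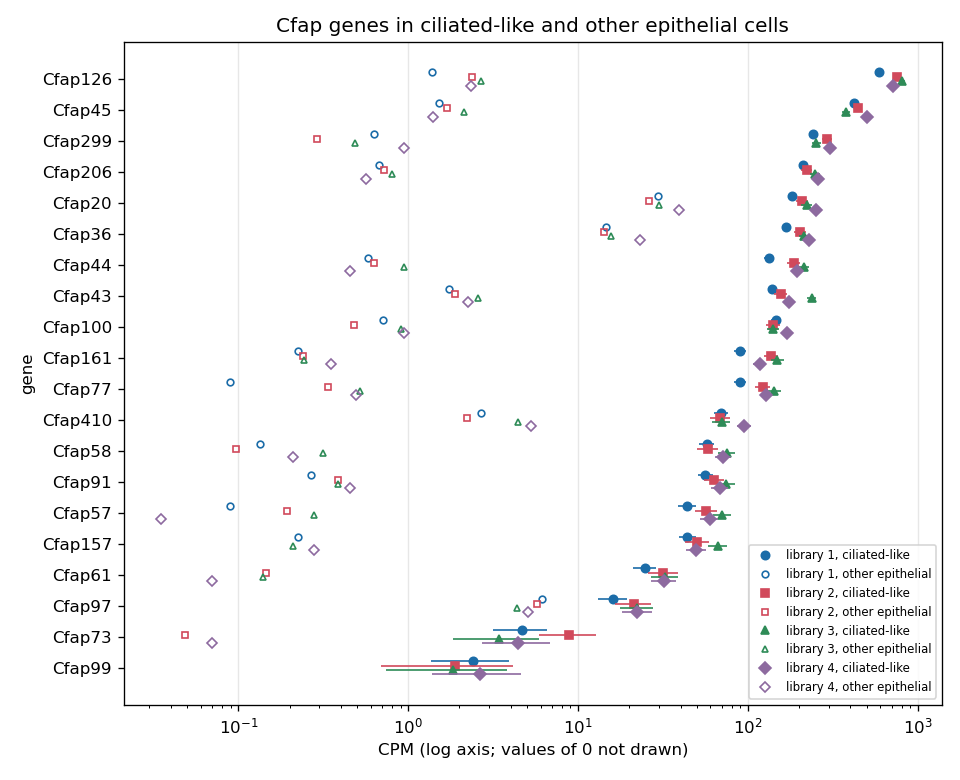
Level of each of the 20 members (CPM, log axis, values of 0 not drawn), 1 point per library. Filled points are ciliated-like cells with exact Poisson 95% intervals, which cover counting error only, and open points are the other named epithelial classes together; every filled point lies to the right of the open point of the same gene and library, with the smallest gap in Cfap97.

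Among the other doublet inner proteins, Cfap161 was at 89.1 to 149 CPM and Cfap77 at 89.2 to 142 CPM over the libraries. The members tied to dynein arms were Cfap44 (133 to 213 CPM) and Cfap43 (139 to 236 CPM), which form the tether of an inner arm, Cfap100 (140 to 170 CPM), which belongs to the MIA complex with Cfap73, and Cfap57 (43.7 to 70.0 CPM). Of the proteins at the radial spokes, Cfap91 was at 56.0 to 74.5 CPM and Cfap61 at 24.5 to 32.4 CPM. Cfap100 and Cfap73, partners in 1 complex, stood far apart: Cfap73 was at 4.64, 8.84, 3.42 and 4.42 CPM from 31, 28, 13 and 20 UMIs.

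Cfap410, which acts at the ciliary base and in photoreceptors, was at 68.2 to 94.2 CPM. Cfap157, a basal body protein, was at 43.9 to 66.4 CPM, and Cfap58, known for its part in sperm flagella, at 57.03 to 74.8 CPM. Cfap97 was at 16.02, 21.2, 22.1 and 22.3 CPM. Cfap99 was the lowest at 2.39, 1.89, 1.84 and 2.65 CPM, from 41 UMIs in all.

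Added together the members made up 2722, 3221, 3410 and 3431 CPM of ciliated-like cells, and Cfap126, Cfap45 and Cfap299 gave 45.9%, 46.3%, 42.0% and 44.0% of that. In the other named epithelial classes together (basal-like, secretory-like, hillock-like, tuft-like, ionocyte-like and proliferating) the sum was 61.0, 57.9, 66.6 and 83.6 CPM. Secretory-like cells held 78357157 of the 100367936 UMIs of these classes, so they weigh most in the comparison. Passing a fold here does not mean passing it over each class alone. All 20 members were higher in ciliated-like cells than in these classes together in every library. With 1 CPM added to both levels, 18 of the 19 members with at least 50 UMIs passed 4-fold in favour of ciliated-like cells in each of the 4 libraries. Over all 12570 genes tested the share was 9.6%, and 1.84% were at least 4-fold lower. Cfap97 was the exception, and Cfap99 had too few UMIs to be counted. The median log2 ratio was 5.76 over the members and 0.53 over all genes tested.

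The 12 excepted Cfap genes had 11 of 12 past the same threshold and a median log2 ratio of 5.68. Other axonemal genes had 51 of 51 and a median of 6.17, but some of them are markers or took part in the clustering, so their values describe the class rather than check it. By role, all 5 doublet inner proteins passed with a median log2 ratio of 6.62, as did all 5 members tied to dynein arms (5.76), all 3 at the radial spokes (5.55) and all 3 of the basal body, ciliary base and photoreceptor group (4.09). Of the 4 members in no role list, Cfap58 and Cfap299 passed.

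With 1 CPM added, the ratio was largest for Cfap126, whose level in the other epithelial classes was 1.38, 2.36, 2.68 and 2.35 CPM. Its log2 ratio was 7.95, 7.81, 7.77 and 7.73. Cfap45 had log2 ratios of 7.39, 7.37, 6.91 and 7.71, and Cfap299 of 7.22, 7.82, 7.41 and 7.28. Cfap206 followed at 6.98, 7.01, 7.11 and 7.37, and Cfap44 at 6.41, 6.84, 6.79 and 7.06. This order follows the level in part, since most members were near or under 1 CPM in the other epithelial classes. The added 1 CPM then holds their ratio down. Cfap20 and Cfap36, next in level, had lower log2 ratios of 2.59 to 2.94 and 3.26 to 3.74. At 2-fold 19 members passed in every library (23.3% of genes), and at 16-fold 14 did (3.09% of genes).

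**Figure D2:**
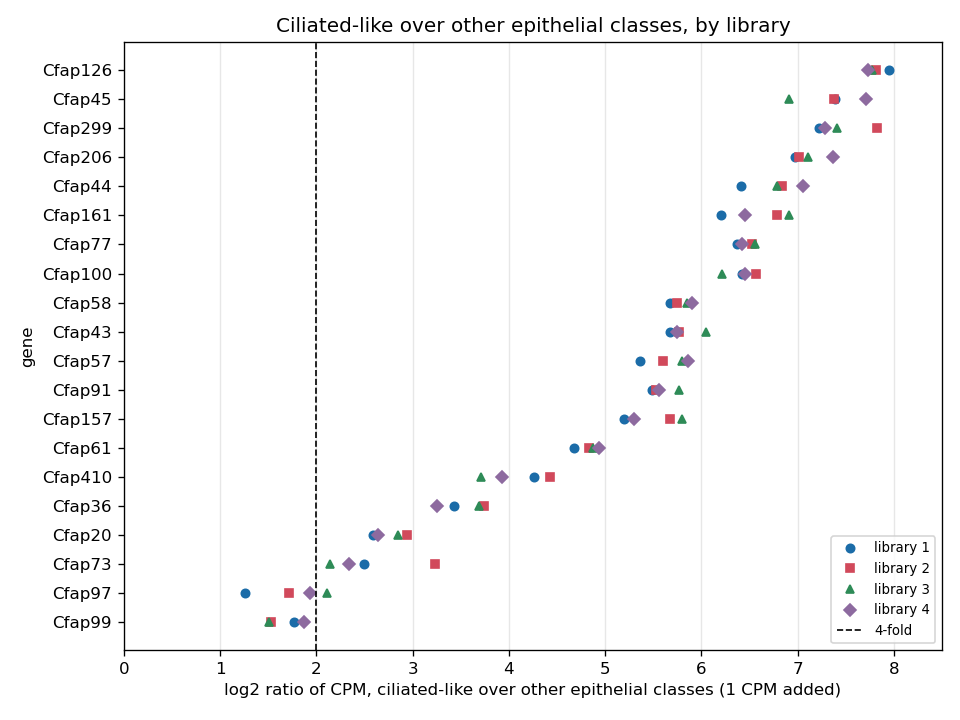
Log2 ratio of CPM in ciliated-like cells over the other named epithelial classes, with 1 CPM added, 1 point per library and gene. The dashed line marks 4-fold. Cfap97 and Cfap99 have points below it, and the low level of Cfap73 and Cfap99 limits how large their ratio can be on this scale.

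With nothing added and the libraries summed, which was computed after the data were seen, the order among the specific members changed. Cfap299 then had the highest ratio at 439 (95% counting interval 341 to 575), followed by Cfap161 at 434 (297 to 660) and Cfap57, which takes part in inner dynein arm assembly, at 370.5 (224 to 664). Cfap126 was at 310.4 (272 to 356) and Cfap45 at 257 (221 to 301). Many of these intervals overlap, so the specific members cannot be put in a firm order. The lowest ratios stayed with Cfap410 at 19.8, Cfap36 at 11.5, Cfap20 at 6.69 and Cfap97 at 3.77, and no interval of these 4 reached that of Cfap43, at 79.3 (69.1 to 91.5).

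Cfap99 had 0 UMIs in the other epithelial classes of all 4 libraries. With those classes set at 3 UMIs over the 4 libraries together (0.0299 CPM), the summed ciliated-like level of Cfap99, 2.26 CPM, was 75.5-fold higher. That value leaves out the counting error of its 41 ciliated-like UMIs (95% interval 1.62 to 3.06 CPM), so it is not a firm lower bound. Cfap73 had 92 UMIs in ciliated-like cells and 3 in the other epithelial classes, a ratio of 169 with a 95% counting interval of 56.2 to 836. The 2 members with the lowest levels were thus also nearly absent from the other named epithelial classes, in contrast to Cfap97. Mixed and unnamed clusters are left out of these counts. Cfap99 had 73 UMIs in all kept cells, and 16 of them lay in a mixed cluster of 1385 cells with ciliated and secretory markers.

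In the other named epithelial classes the RNA of the members came mainly from 4 of them, Cfap20, Cfap36, Cfap97 and Cfap410. These gave 84.6% of the 6864 member UMIs in those classes and 16.1% of the 56855 in ciliated-like cells. Member UMIs in mixed and unnamed clusters are not in these shares. A mixed cluster of 1385 cells with ciliated and secretory markers alone held 4404 UMIs of Cfap126. RNA released from broken cells and doublets carry ciliated transcripts into other cells. Each member's level in basal-like cells was therefore set against 18 axonemal genes that basal cells should lack, such as dynein arm and radial spoke genes. Some of the 18, such as Ccdc153 and Dnah5, are also ciliated markers that named the clusters. Unlike the members, none of the 18 was barred from the clustering. The highest ratio of basal-like to ciliated-like level among these was 1.39%, 1.67%, 0.62% and 0.88% in libraries 1 to 4. Of 19 members tested, 4 had a lower 95% counting bound above that ratio in every library, against 89.7% of all genes tested. The members below it were thus the unusual ones, and the same 4 passed in secretory-like cells, where the share of all genes was 93.7%.

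Cfap20 was at 40.1, 41.3, 37.3 and 54.0 CPM in basal-like cells, from 118, 131, 181 and 296 UMIs. That was 22.1%, 19.8%, 16.9% and 21.6% of its level in ciliated-like cells, and in secretory-like cells it was at 26.3, 22.2, 24.1 and 31.8 CPM. All 4 libraries gave about the same share. The other doublet inner proteins, Cfap45, Cfap77, Cfap126 and Cfap161, did not pass in basal-like cells.

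Cfap36 was at 14.6, 12.6, 13.6 and 17.1 CPM in basal-like cells, 8.72%, 6.23%, 6.40% and 7.50% of its ciliated-like level. In secretory-like cells it was at 13.6, 14.2, 14.2 and 22.9 CPM, highest in library 4. Cfap97 was at 7.82, 6.30, 5.36 and 6.20 CPM in basal-like cells, 48.8%, 29.8%, 24.2% and 27.8% of its ciliated-like level. It was the member least restricted to ciliated-like cells, with log2 ratios of 1.26, 1.72, 2.11 and 1.94 over the other epithelial classes.

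Cfap410 was at 3.06, 4.10, 4.95 and 8.57 CPM in basal-like cells, 4.41%, 6.01%, 7.09% and 9.11% of its ciliated-like level. In secretory-like cells it was at 2.45, 1.85, 3.995 and 4.28 CPM. With every cell thinned to 1000 UMIs, Cfap410 no longer passed in basal-like cells, while Cfap20, Cfap36 and Cfap97 did. The other 16 members lay at no more than 1.47% of their ciliated-like level in basal-like cells of any library. Cfap73 and Cfap99 had 0 UMIs in basal-like cells, which allows up to 0.182 CPM.

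**Figure D3:**
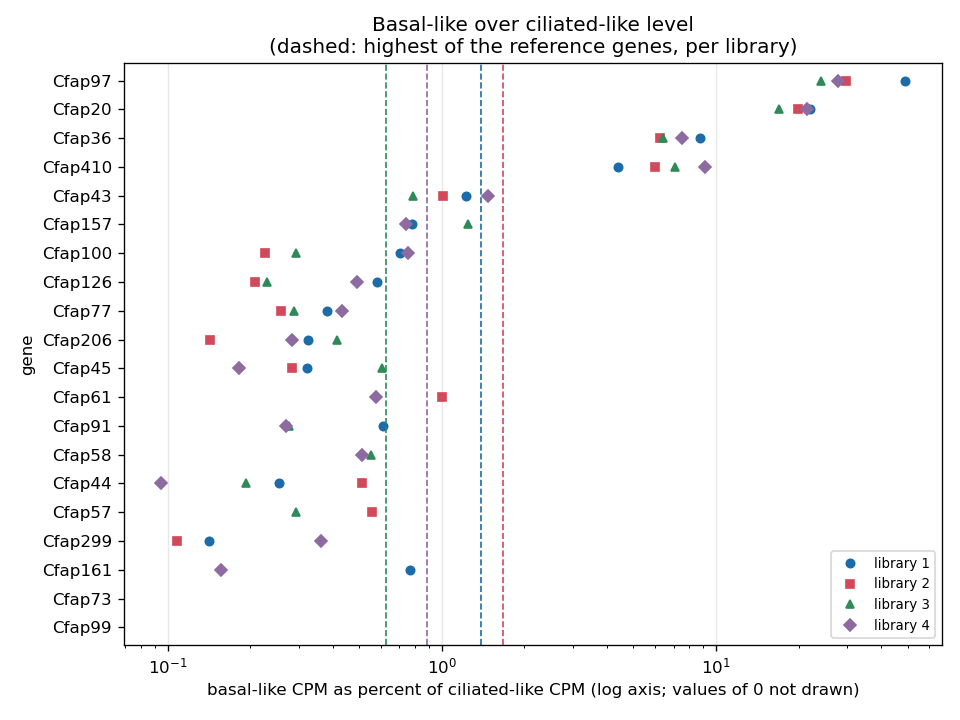
Level in basal-like cells as a percent of the level in ciliated-like cells (log axis), 1 point per library and gene, with values of 0 not drawn. Dashed lines give the highest ratio among 18 axonemal genes in each library, and only Cfap97, Cfap20, Cfap36 and Cfap410 lie to the right of all 4 lines in every library.

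Shares of cells with a UMI gave the same contrast. Cfap126 had a UMI in 80.8% to 85.0% of ciliated-like cells over the libraries and in 0.613% to 2.26% of basal-like cells, and Cfap20 in 43.5% to 55.8% and 12.3% to 22.8%. Median depth was 2044 to 3736 UMIs in ciliated-like and 3056.5 to 5579 in basal-like cells. After thinning to 1000 UMIs, which left out 91 to 210 shallower ciliated-like and 2 to 10 basal-like cells per library, Cfap20 had a UMI in 20.2% to 22.2% of ciliated-like and 2.95% to 5.23% of basal-like cells. For Cfap126 the thinned shares were 47.1% to 58.2% and 0.155% to 0.654%.

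Cfap43 stood at the edge. In secretory-like cells it was at 1.65, 1.73, 2.57 and 1.998 CPM, 1.19%, 1.11%, 1.09% and 1.15% of its ciliated-like level. That was above the highest of the 18 axonemal genes with the libraries summed (1.18% against 0.67%), but not by the counting bound in each library. In basal-like cells it reached 1.23%, 1.01%, 0.79% and 1.47%, which lay below the highest axonemal ratio in libraries 1 and 2 and above it in libraries 3 and 4.

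The smaller classes were summed over the libraries. Tuft-like cells, the chemosensory cells of the airway, had 136 CPM of Cfap36 (95% counting interval 110 to 166.5), 68.5% of the ciliated-like level, from 93 UMIs in 154 cells. By library it was at 123, 17.2, 142 and 173 CPM, and the low value of library 2 rests on 1 UMI. Tuft-like cells also had 93.5 CPM of Cfap20 (72.0 to 119) and 16.1 CPM of Cfap410 (8.02 to 28.8). Cfap97 was at 29.2 CPM (17.9 to 45.1) in tuft-like cells, 148% of its ciliated-like level, with intervals that overlap. The highest axonemal ratio in tuft-like cells was 7.64%, so all 4 lay above it.

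Cfap20 was at 66.1 CPM (57.7 to 75.5) in hillock-like cells, a squamous-like group of the trachea, and at 73.0 CPM (59.3 to 88.9) in proliferating cells. The proliferating cluster carried 6 of 8 secretory and 5 of 7 basal markers. It also had 38.0 CPM of Cfap36 (28.3 to 49.9) and 11.9 CPM of Cfap97 (6.81 to 19.4). In the 44 ionocyte-like cells Cfap20 was at 35.3 CPM from 8 UMIs and Cfap97 at 13.3 CPM from 3 UMIs, too few to rank. By the lower counting bound, Cfap20 and Cfap97 were thus above the highest axonemal ratio in every named class other than ciliated-like. Among those classes Cfap20, Cfap36, Cfap97 and Cfap410 were all highest in tuft-like cells. Only for Cfap36 did the tuft-like interval lie apart from that of proliferating cells.

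**Figure D4:**
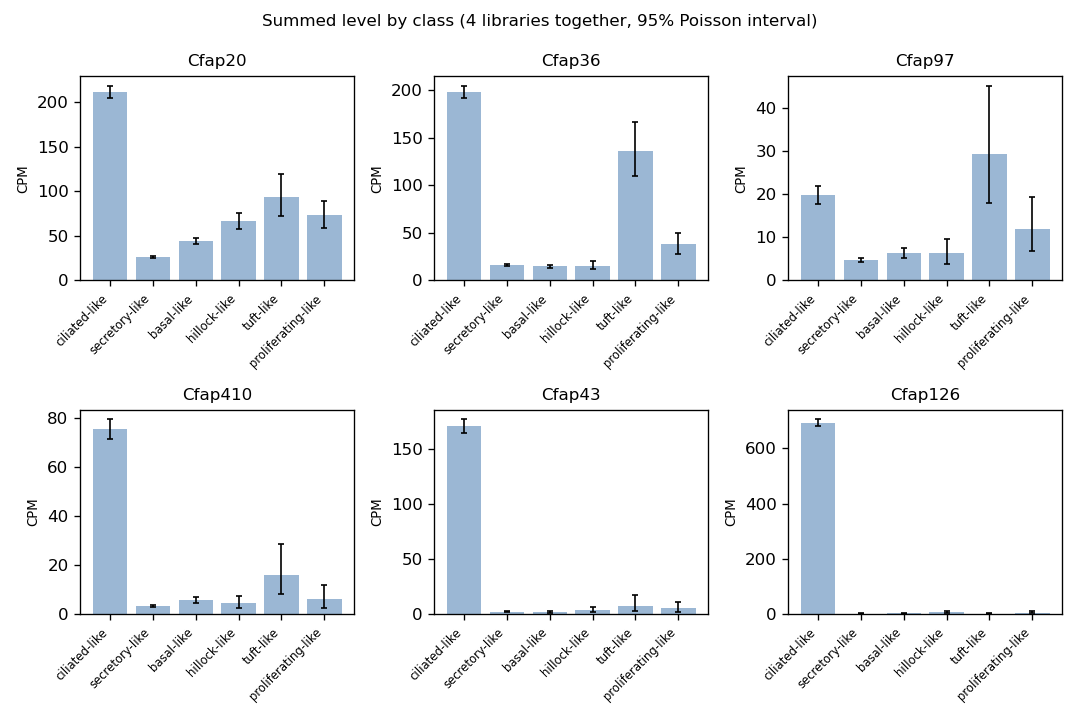
Bars give the level (CPM, linear axis from 0, a separate scale for each gene) of Cfap20, Cfap36, Cfap97, Cfap410, Cfap43 and Cfap126 in the classes with at least 100 cells, with the 4 libraries summed and exact Poisson 95% intervals as error bars. Cfap36 reaches 136 CPM in tuft-like cells, while Cfap126 is close to 0 in the drawn classes other than ciliated-like.

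None of the 18 members with at least 100 UMIs was 2-fold apart between its highest and lowest library with intervals apart, against 6.68% of 9149 genes, so with 18 members the count is near the background. At 1.5-fold, 6 of the 18 (33.3%) were: Cfap43 (1.70-fold), Cfap161 (1.67-fold), Cfap57, Cfap44 and Cfap77 (1.60-fold each) and Cfap157 (1.51-fold), against 21.7% of genes. All 6 were highest in library 3 and lowest in library 1. In ciliated-like cells the summed secretory markers were also lowest in library 1 and highest in library 3 (6677, 9391, 13654 and 9827 CPM in libraries 1 to 4), while the median depth per cell was highest in library 1 and lowest in library 3 (3736, 2257.5, 2044 and 2378 UMIs), and their part in the result was not tested. Without library 1 there was 1 such member, and without library 3 there was 1, while leaving out library 2 or 4 gave 6.

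Library 1 was lowest for 15 of the 18 members tested, against 33.6% of genes. The 18 axonemal genes summed to 5846, 7725, 8190 and 7355 CPM in ciliated-like cells, also lowest in library 1, and the members gave 466, 417, 416 and 466 UMIs per 1000 of theirs. On that scale 2 members were 1.5-fold apart, against 38.6% of genes. They were Cfap45, highest in library 1 and lowest in library 3 (1.57-fold), and Cfap410, highest in library 4 and lowest in library 3 (1.502-fold). The direction for Cfap45 thus differed from that of the 6 members above, which no longer passed.

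The ciliated-like cells fell into shallow clusters (median under 3000 UMIs per cell; 802 to 950 cells per library) and deep ones (188 to 416 cells), a split that was made after the data were seen. The deep cells of libraries 1 and 4 lay mostly in 1 cluster (360 and 316 cells) and those of libraries 2 and 3 in another (184 and 411). The first is led by a feature named eGFP, which reached 1360, 94.1, 0 and 1987 CPM in all ciliated-like cells of libraries 1 to 4, and the labels used here name no such transgene. Its part in the values was not tested. In the deep clusters alone Cfap410 was 2.46-fold apart, at 68.4 CPM in library 4 and 27.8 CPM in library 2, against 10.1% of genes past 2-fold.

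Of the 19 members tested, 1 was at least 2-fold higher in the shallow clusters in every library and none was 2-fold lower, against 4.33% and 6.31% of genes, so the count is near the background. The member was Cfap73, at 9.37, 15.6, 6.51 and 9.88 CPM in the shallow and 1.89, 0.70, 1.66 and 0 CPM in the deep clusters. The deep values of Cfap73 rest on few counts, 8 and 5 UMIs in the deep clusters with the libraries summed. This call did not ask for intervals that lie apart. Every shallow value was above every deep value. Its partner in the MIA complex, Cfap100, had a median log2 ratio of 0.95.

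The median log2 ratio of shallow over deep was 0.45 over the members and -0.06 over all genes, and 11 of 19 members (57.9%) were higher in the shallow clusters in all 4 libraries, against 30.5% of genes. The 18 axonemal genes were also higher there, at 8606, 9833, 10911 and 9422 CPM against 4242, 5185, 6632 and 5680 CPM. Mitochondrial transcripts were lower, at 33153 to 42998 CPM against 49327 to 60444 CPM. Deuterosomal markers were higher in the shallow clusters (138 to 187 against 39.0 to 77.0 CPM) and hillock markers lower (539 to 816 against 1187 to 2358 CPM), each in every library. The part of depth and of these markers in the differences was not tested. Cfap206, Cfap57 and Cfap91 were the 3 members lower in the shallow clusters in every library (36.2% of genes were), with median log2 ratios of -0.27, -0.28 and -0.37. Cfap206 was at 184, 207, 221 and 210.3 CPM in the shallow and 224, 239, 264 and 295 CPM in the deep clusters. After Cfap73, whose median log2 ratio was 2.57, the next were Cfap410 at 1.25 and Cfap20 at 1.00.

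**Figure D5:**
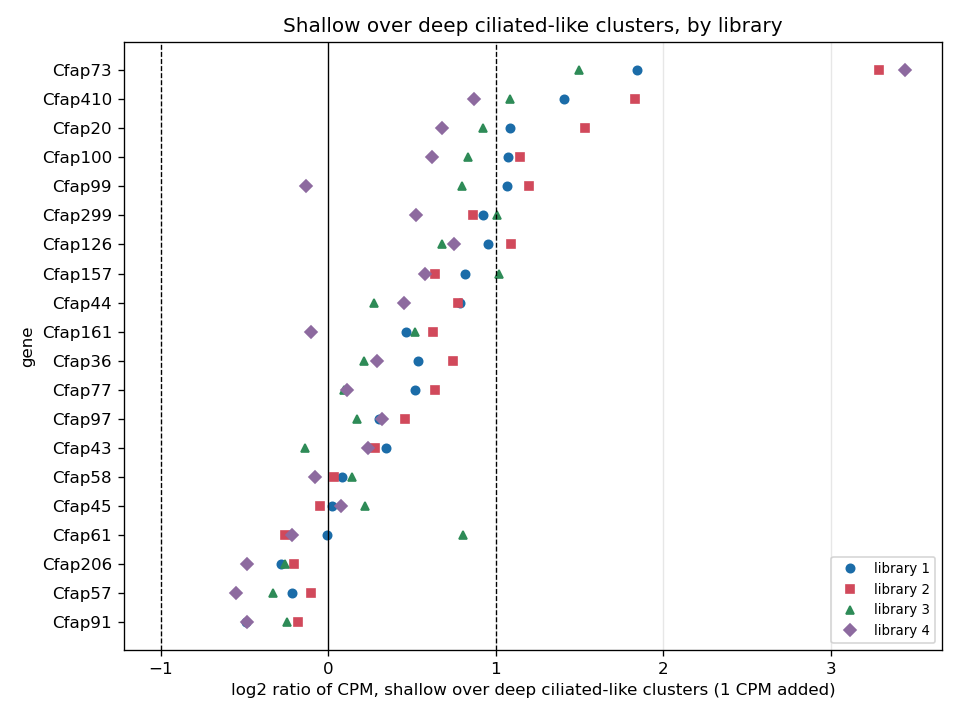
Log2 ratio of CPM in shallow over deep ciliated-like clusters, with 1 CPM added, 1 point per library and gene. The solid line marks no difference and the dashed lines 2-fold. Cfap73 lies furthest to the right, and Cfap206, Cfap57 and Cfap91 lie below 0 in all 4 libraries.

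Cells that are building cilia carry deuterosome genes such as Deup1 and Ccno. One cluster of 109 cells had 5 of the 8 deuterosomal markers, together with 10 of 10 ciliated and 6 of 8 secretory markers, so it was counted as mixed and not as a type. The secretory markers of the cluster of 109 cells summed to 147749 CPM against 9393 CPM in ciliated-like cells. Its deuterosomal markers summed to 267 against 101 CPM, and the 18 axonemal genes to 4938 against 7039 CPM. Their part in the values was not tested. With libraries summed, no member was 2-fold higher in this cluster than in ciliated-like cells (5.26% of genes were). Those at least 2-fold lower were Cfap126, Cfap299, Cfap100, Cfap58 and Cfap73, 5 of the 19 members with at least 50 UMIs, against 6.61% of genes. For Cfap73 the level in this cluster rests on 2 UMIs.

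Cfap36 was at 320 CPM (296 to 345) in that cluster and 198 CPM in ciliated-like cells, above its level in each named class. Within the ciliated-like class, however, a shallow cluster of 295 cells reached 326 CPM (264 to 397). Cfap126 was at 332 CPM (308 to 357) against 693 CPM, Cfap299 at 108 CPM (95.01 to 123) against 267 CPM, and Cfap100 at 46.8 CPM (38.1 to 56.9) against 149 CPM. Relative to the 18 axonemal genes, Cfap36 passed 2-fold, at 64.8 UMIs per 1000 against 28.2 (16.6% of genes were that much higher), and Cfap100 was the only member 2-fold lower, at 9.48 against 21.2 (2.35% of genes were that much lower). Cfap36 was the only one of the 20 members 2-fold higher on that scale.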

How the data were processed

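The values are UMI counts per gene and cell barcode in 1 matrix of 4 libraries, deposited by the authors and not normalized. It came from Cell Ranger 6.0.1 per the file headers. The build was GRCm39 per the submitters' processing notes. The annotation release is not given in the sources used here. Cells needed 300 genes and at most 20% mitochondrial UMIs (1308 barcodes failed), and the highest-scoring 116, 125, 410 and 237 cells of libraries 1 to 4 were removed as likely doublets, at 0.8% per 1000 cells.

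Clusters (Leiden, leidenalg 0.10.2, resolution 1, 15 neighbours, 2000 genes, 30 components, no Cfap-named gene) were named from marker lists, by a scoring rule set after the data were seen. Class sums of UMIs gave CPM, with exact Poisson 95% intervals. These and the limit of 3 counts cover counting error only. The calls were tested on simulated data. The members and lists were chosen with earlier results of these data known. Named with values by library were the 5 highest members by level and by ratio, those not called, and those above the carried-over level; others were named after their values were seen. Alternatives covered the pseudocount, filters, folds, clustering resolution, thinning and leaving out each library. Promoters are RefSeq, GRCm38.p6, and no coordinate was moved between builds.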

Additional observations from a re-analysis of the deposited data

How the results depend on the processing

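No paired analysis was possible because the labels give no replicate numbers and each genotype has 1 library. The count of members higher in ciliated-like cells was 14 to 19 over 18 other settings and 18 whichever library was left out. The count above the carried-over level in basal-like cells was 3 to 5 over 13 settings and 4 whichever library was left out. The count of members 2-fold apart between libraries stayed 0 with any library left out. It became 6 at 1.5-fold, 2 at 1.5-fold per 1000 UMIs of the axonemal genes, and 1 in the deep ciliated-like clusters alone. The count higher in the cluster with deuterosomal markers was 0, and 1 per 1000 UMIs of the axonemal genes. The 1.5-fold setting was planned, and the per-axonemal 1.5-fold, deep-cluster and deuterosomal ones were chosen after seeing the data. The cause was not tested. Of 1020 values of single members under other settings, 998 kept their side of the threshold. Values short of the threshold could change sign or order. In the cluster with deuterosomal markers the log2 ratio of Cfap206 was -0.33 by CPM and 0.18 relative to the axonemal genes. Between libraries Cfap206 was lowest in library 1 by CPM and highest in library 1 relative to the axonemal genes. Low counts limit Cfap73 and Cfap99, and cell numbers limit the tuft-like and ionocyte-like values.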
